A study of Mus musculus with 13 samples.

Results

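T cells and natural killer (NK) cells were followed in the livers of DMBA-treated, high fat diet-fed WT and Nod2-/- mice through 10 genes, out of 53465 in the table of counts. The genes were chosen by name: Cd3e, Cd3d and Trac of the T cell receptor complex, the co-receptors Cd4 and Cd8a, the cytotoxic and NK cell genes Nkg7, Gzma, Ncr1 and Klrb1c, and Il2rg, the receptor chain shared by a family of lymphocyte cytokines. All 10 were found by matching Ensembl identifiers to mouse symbols. Liver RNA came from 6 WT and 7 Nod2-/- BALB/c mice, which the labels place at an age of 30 weeks, with 1 library per mouse. By the study's account all of these mice were male. The Nod2-/- mice lacked the bacterial peptidoglycan sensor Nod2 in every cell, and WT mice were not their littermates. Mice of both genotypes received the carcinogen DMBA (dimethylbenz[a]anthracene) on the skin as pups and were kept on high fat diet (HFD). The diet lasted 30 weeks by the labels and slightly longer by the study's methods. Treatment was thus the same by design, while genotype went along with breeding line. The study kept all mice in 1 room and avoided littermates, so as not to remove a role of the gut microbiota. Genotype, breeding line and microbiota cannot be told apart here. The labels give every mouse as having cancer and do not say which pieces of liver contained tumor. The study, however, found liver tumors in only a minority of male WT mice treated this way, and most of these tumors were small. Nearly all male Nod2-/- mice so treated had tumors, and both small and large tumors were more numerous. Tumor burden thus went along with genotype in the study, and its part in the values below was not tested.

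T cells recognize peptides or lipids through a T cell receptor whose variable chains cannot signal by themselves and depend on the CD3 chains that travel with them to the cell surface. CD4 and CD8 bind class II and class I MHC molecules and define helper and cytotoxic T cells. NK cells have no such receptor, kill through granzymes and perforin, and are balanced by activating and inhibitory receptors, most of them encoded in a gene cluster that varies between mouse strains. Liver is known for a large resident population of NK cells and innate-like T cells along the sinusoids. Both lineages need cytokines such as IL-2, IL-7 and IL-15 that signal through the common gamma chain, the product of Il2rg.

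Depth per library was 14886273 to 20579984 counts in the WT group and 13824780 to 19391431 in the Nod2-/- group. Nod2 itself had 0 to 4 counts in WT livers and 1 to 6 in Nod2-/- livers, so the gene-level count did not separate the genotypes and the labels could not be checked with it. The 8 hepatocyte genes summed to 1290250 to 2820490 normalized counts in each mouse. Here and below, a normalized count is the raw count rescaled so that all 13 libraries have the same effective size. Nod2-/- replicate 7 stood apart with 17512 normalized counts over 12 neutrophil genes, against 71.3 to 1579 in the other mice. WT replicates 2, 3 and 4 held the highest sums of 10 lung epithelium genes, at 942 to 3344 normalized counts, and the other 10 mice had 50.8 to 558. Whether either feature affects the T and NK cell genes was not tested, and values without these libraries are given where they matter.

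Promoter sequence from RefSeq (GRCm38.p6) was found for 8 of the 10 genes, and for Cd4 and Trac no sequence was used here. The stretches of 250 bases before the start sites of Cd3e, Cd3d and Il2rg are shown because Cd3e and Cd3d lie close together and encode partner chains, and because Il2rg had the larger difference between genotypes of the only 2 of these 10 genes, Il2rg and Cd4, that passed the filter on low counts. Letters are 5′ to 3′ on the strand of the gene, and capitals mark GGAAG, which contains the core bound by ETS family factors, or its reverse complement CTTCC. The Cd3e stretch is chr9:45009612-45009861 on the minus strand, the Cd3d stretch is chr9:44981536-44981785 on the plus strand and the Il2rg stretch is chrX:101268256-101268505 on the minus strand.
Cd3e: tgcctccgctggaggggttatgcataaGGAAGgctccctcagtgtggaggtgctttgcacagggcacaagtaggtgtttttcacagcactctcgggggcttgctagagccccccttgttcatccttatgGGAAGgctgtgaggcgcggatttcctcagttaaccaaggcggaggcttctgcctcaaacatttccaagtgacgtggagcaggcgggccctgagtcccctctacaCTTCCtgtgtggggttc
Cd3d: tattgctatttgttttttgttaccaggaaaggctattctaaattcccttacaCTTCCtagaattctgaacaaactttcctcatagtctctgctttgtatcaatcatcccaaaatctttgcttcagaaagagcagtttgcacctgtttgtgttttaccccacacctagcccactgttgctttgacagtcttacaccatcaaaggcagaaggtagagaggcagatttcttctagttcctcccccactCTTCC
Il2rg: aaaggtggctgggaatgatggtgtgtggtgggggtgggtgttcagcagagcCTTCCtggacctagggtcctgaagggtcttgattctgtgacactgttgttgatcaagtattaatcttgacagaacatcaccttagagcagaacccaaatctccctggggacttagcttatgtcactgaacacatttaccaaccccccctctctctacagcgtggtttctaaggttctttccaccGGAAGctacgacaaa
The letters occurred 3 times before Cd3e, 2 times before Cd3d and 2 times before Il2rg on either strand. Of the 8 genes, 7 had a match and Ncr1 had none, and 64.1% of all 32851 promoter stretches of the same length had a match. A match is a description of these letters and not a mapped site.

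All 10 genes were scarce in liver RNA. Together they received 1361 counts over the 13 mice, or 6.30 CPM, and Cd4 contributed 727 of them, 53.4%. Il2rg had 231 counts, and the other 8 genes together had 403. Cd3d, Cd4, Nkg7 and Il2rg were counted in every mouse, while Cd3e, Cd8a, Trac, Gzma, Ncr1 and Klrb1c were at 0 in at least 1 mouse. A count of 0 to 3 in a library was treated as not detected, which corresponds to 0.148 to 0.206 CPM, and this limit covers counting error only. Only Cd4 and Il2rg passed the filter on low counts and entered the fit across all genes.

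To compare levels between genes, counts were divided by exon length and by effective library size, giving CPM per kb of exon. On this scale the level was 0.829 ± 0.373 (SD, n = 13) for Cd4, 0.527 ± 0.735 for Nkg7, 0.438 ± 0.364 for Il2rg, 0.276 ± 0.209 for Trac, 0.199 ± 0.188 for Gzma and 0.173 ± 0.137 for Cd3d. Below these came Cd3e at 0.0802 ± 0.0650, Ncr1 at 0.0636 ± 0.0744, Cd8a at 0.0294 ± 0.0343 and Klrb1c at 0.0139 ± 0.0181. Neighbours in this order were compared within mice by an exact two-sided permutation test of the paired difference over 8192 sign assignments, adjusted over 9 pairs. Cd3d was above Cd3e in 11 of 13 mice (adjusted p = 0.0220, exact permutation test), the only pair of neighbours past the threshold. This order of Cd3d and Cd3e came from the length used, since their raw totals were 69 and 72 counts and their annotated exons span 1815 and 4080 bases. The other 8 pairs of neighbours did not differ beyond the spread between mice (adjusted p = 0.155 to 0.731, exact permutation tests). Cd4 was above Nkg7 in 12 of 13 mice, although the means differed by less than the SD of Nkg7.

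**Figure D1:**
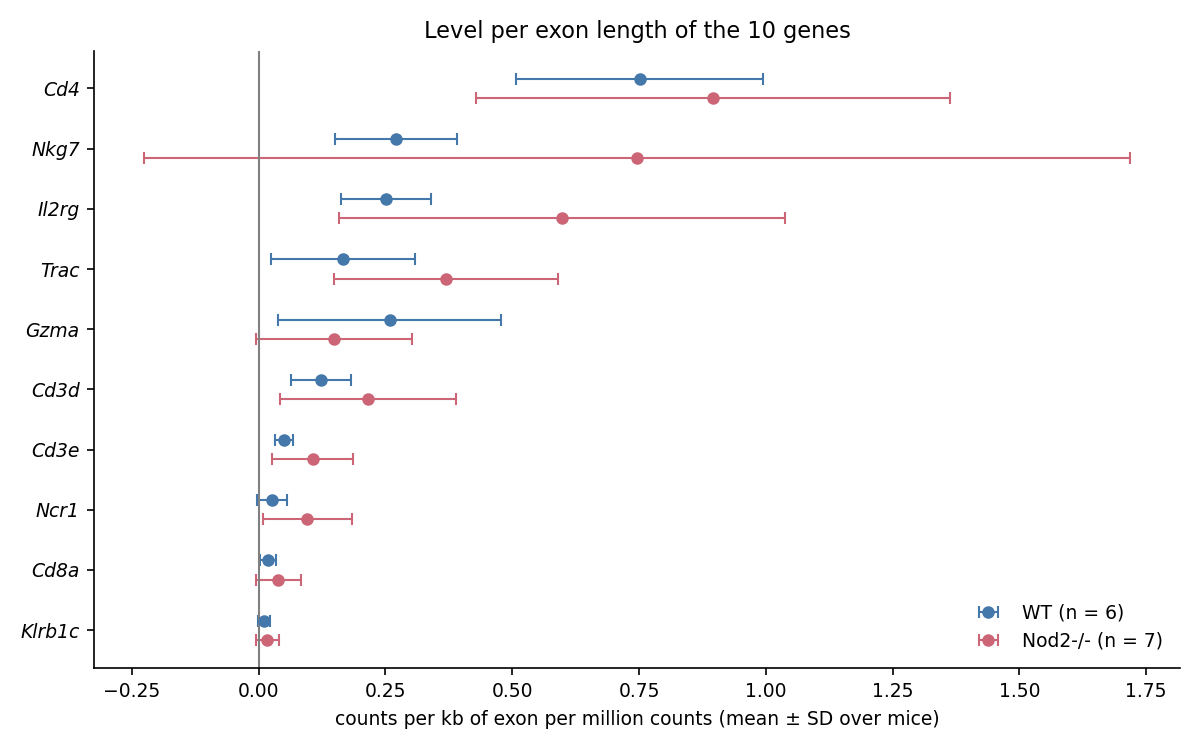
Level of each of the 10 genes in CPM per kb of exon (x axis, linear), mean ± SD over the 6 WT mice (blue) and 7 Nod2-/- mice (red), ordered by the mean over all mice. Cd4 had the highest mean, 0.829 over all mice, Klrb1c the lowest, 0.0139, and the SD of Nkg7 in Nod2-/- mice (0.973) exceeded its mean (0.746).

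Cd3e encodes the epsilon chain of CD3 and lies on chr9:44998740-45009627 (GRCm38, minus strand). Its raw counts were 3, 4, 5, 4, 2 and 2 in WT replicates 1 to 6 and 4, 1, 9, 11, 16, 0 and 11 in Nod2-/- replicates 1 to 7, with medians of 3.5 and 9. The WT livers were within a narrow range, and the Nod2-/- livers lay on both sides of it: 4 of 7 were above every WT mouse and 2 were below. The mean was 3.37 ± 1.25 normalized counts (SD, n = 6) in WT and 7.18 ± 5.44 (n = 7) in Nod2-/- livers, a difference that did not pass the exact permutation test (p = 0.118, two-sided, 1716 assignments). In these bulk samples, a different number of T cells and a different amount of RNA per T cell cannot be told apart. The study measured CD4+ T cells by flow cytometry, as a share of CD45+ cells, in livers of male mice treated alike. They were higher in Nod2-/- livers at its earlier time points. At its last time point, that of the RNA, it reported no significant increase in liver.

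Cd3d encodes the delta chain of CD3 and lies near Cd3e, at chr9:44981786-44987339 (plus strand). The raw counts were 1, 4, 4, 3, 3 and 8 in WT mice and 2, 4, 7, 5, 7, 3 and 18 in Nod2-/- mice, with medians of 3.5 and 5. Nod2-/- replicate 7 was far above the rest and the other mice of both genotypes overlapped. Means were 3.70 ± 1.79 and 6.50 ± 5.20 normalized counts (n = 6 and 7, p = 0.237, exact permutation test). The difference was 2.80 normalized counts with all mice and 0.941 without Nod2-/- replicate 7.

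Trac encodes the constant region of the T cell receptor alpha chain, the clonotypic partner of CD3 in conventional T cells, and lies on chr14:54220521-54224206 (plus strand). Raw counts of Trac were 5, 1, 6, 2, 0 and 2 in WT mice and 5, 1, 7, 5, 12, 2 and 9 in Nod2-/- mice, with medians of 2 and 5. Nod2-/- replicates 3, 5 and 7 were above every WT mouse, and with 0 counts in WT replicate 5 none could be below. Means were 2.58 ± 2.21 and 5.73 ± 3.42 normalized counts (n = 6 and 7, p = 0.0810, exact permutation test). The whole alpha beta receptor complex, including Cd3g, Cd247, Trbc1 and Trbc2, summed to 12.2 to 39.5 normalized counts in WT mice (median 27.9) and 19.8 to 96.0 in Nod2-/- mice (median 44.9). Nod2-/- replicates 3, 4, 5 and 7 were above every WT mouse for that sum, and replicates 1, 2 and 6 were within the WT range. Cd247, the zeta chain that carries most of the signal of the complex, went the other way, with means of 3.56 ± 2.47 in WT and 3.04 ± 1.66 in Nod2-/- mice.

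**Figure D2:**
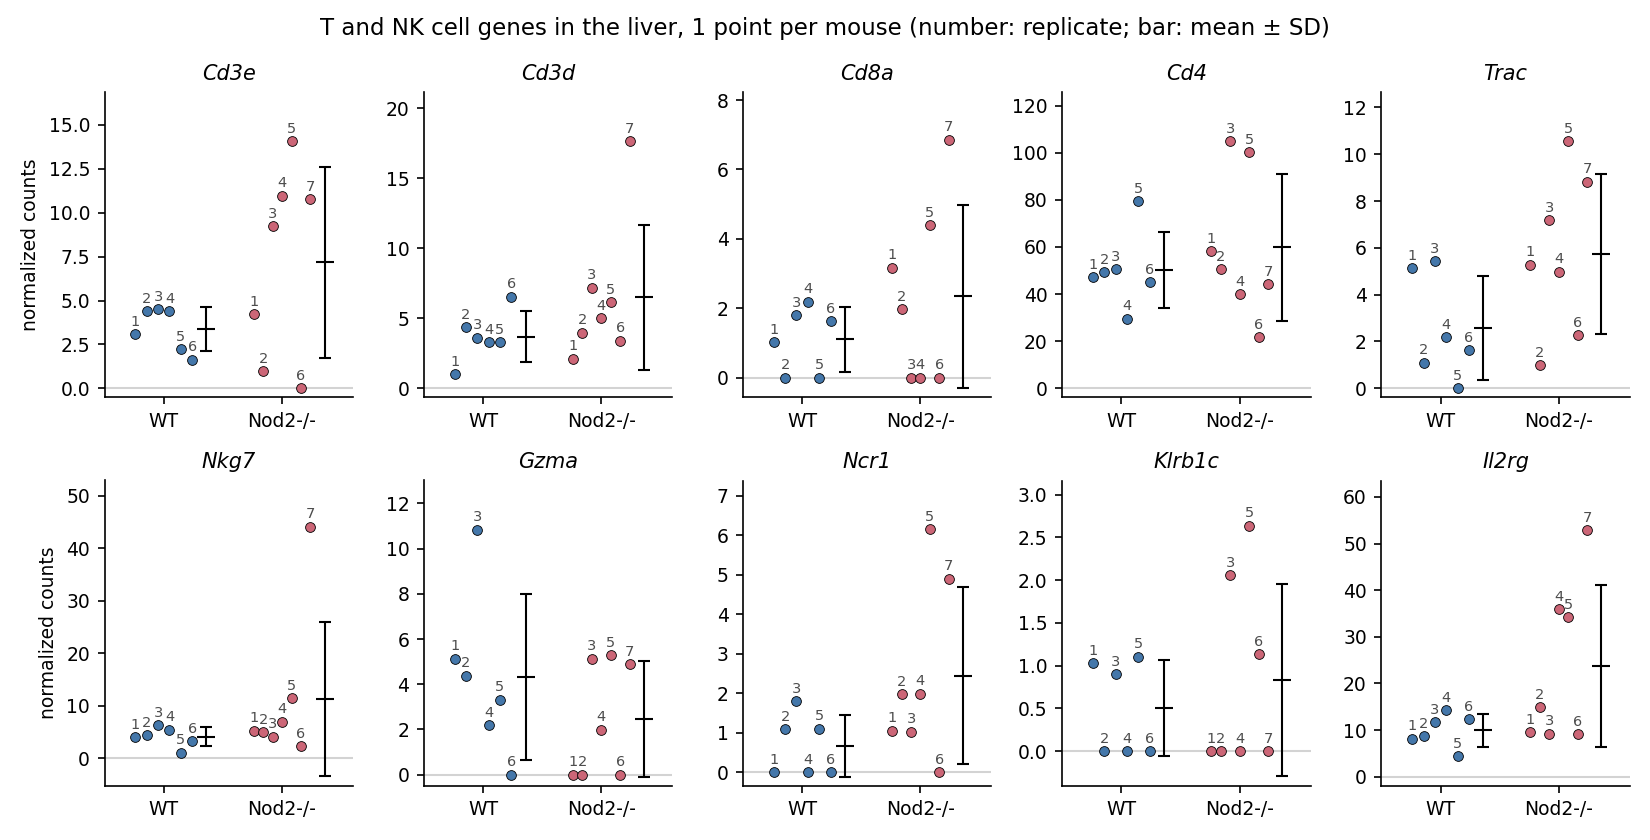
Normalized counts of the 10 genes (y axis, linear, a separate scale in each panel) in each WT mouse (blue) and Nod2-/- mouse (red), with the replicate number above each point and the mean ± SD beside each group. No gene separated the genotypes, and Nod2-/- replicate 7 was the highest mouse for Cd3d, Cd8a, Nkg7 and Il2rg.

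Cd4, the helper T cell co-receptor, which is also carried by some dendritic cells, lies on chr6:124864692-124888221 (minus strand). Raw counts of Cd4 were 46, 45, 56, 27, 72 and 55 in WT mice and 55, 51, 102, 40, 114, 19 and 45 in Nod2-/- mice, with medians of 50.5 and 51. The medians were nearly equal, and Nod2-/- replicates 3 and 5 were above every WT mouse while replicate 6 was below. The log2 fold change was 0.26 ± 0.33 (SE; edgeR adjusted p = 0.659), and means of 50.2 ± 16.3 and 59.9 ± 31.2 normalized counts gave p = 0.510 in the exact permutation test. With 1 mouse left out the log2 fold change was 0.07 (without Nod2-/- replicate 3) to 0.43 (without WT replicate 5). Cd4 had more counts than the other 9 genes together, and its level in CPM per kb was above that of Cd3e, Cd3d and Trac.

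Cd8a, the alpha chain of the cytotoxic T cell co-receptor, also found on some dendritic cells, lies on chr6:71373427-71379173 (plus strand). For Cd8a the raw counts were 1, 0, 2, 2, 0 and 2 in WT mice and 3, 2, 0, 0, 5, 0 and 7 in Nod2-/- mice, with medians of 1.5 and 2. No WT liver was over the detection limit, and 2 Nod2-/- livers, replicates 5 and 7, were. Means were 1.11 ± 0.939 and 2.34 ± 2.64 normalized counts (n = 6 and 7, p = 0.323, exact permutation test), and the difference of 1.23 became 0.481 without Nod2-/- replicate 7. The 95% exact interval of the ratio of pooled counts, Nod2-/- over WT, was 0.829 to 6.00. It covers counting error only and leaves out the spread between mice. The interval includes 1 and is too wide to tell no difference from a difference of several fold. Cd8b1, which encodes the partner chain, had at most 3 counts in every mouse.

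Nkg7, a protein of cytotoxic granules in NK cells and killer T cells, lies on chr7:43437073-43438249 (plus strand). Nkg7 had raw counts of 4, 4, 7, 5, 1 and 4 in WT mice and 5, 5, 4, 7, 13, 2 and 45 in Nod2-/- mice, with medians of 4 and 5. The high mean of the Nod2-/- group came from replicate 7. Means were 4.11 ± 1.82 and 11.3 ± 14.7 normalized counts (n = 6 and 7, p = 0.235, exact permutation test), and the difference was 7.19 normalized counts with all mice and 1.73 without that mouse. Cst7, the cystatin of cytotoxic granules that is also known in myeloid cells, had 20 counts in the same mouse and at most 2 in any other.

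Gzma, encoding granzyme A, a protease that NK cells and cytotoxic T cells release into targets, lies on chr13:113093825-113100981 (minus strand). Raw counts of Gzma were 5, 4, 12, 2, 3 and 0 in WT mice and 0, 0, 5, 2, 6, 0 and 5 in Nod2-/- mice, with medians of 3.5 and 2. It was the only one of the 10 genes with a lower mean in Nod2-/- livers, 2.47 ± 2.56 normalized counts against 4.31 ± 3.67 in WT (n = 7 and 6, p = 0.322, exact permutation test). The difference, Nod2-/- minus WT, was -1.84 normalized counts with all mice, -0.531 without WT replicate 3 and -0.341 without WT replicates 2, 3 and 4. The single highest mouse was WT replicate 3, and 3 Nod2-/- livers had no count. Nod2-/- replicate 7, the highest mouse for Nkg7, had 5 counts of Gzma, so these genes of cytotoxic granules were not ordered alike over the mice.

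Ncr1 encodes NKp46, an activating receptor that is largely particular to NK cells and innate lymphoid cells, and lies on chr7:4337724-4345164 (plus strand). Its raw counts were 0, 1, 2, 0, 1 and 0 in WT mice and 1, 2, 1, 2, 7, 0 and 5 in Nod2-/- mice, with medians of 0.5 and 2. Only Nod2-/- replicates 5 and 7 exceeded the detection limit. Means were 0.668 ± 0.776 and 2.45 ± 2.24 normalized counts (n = 6 and 7, p = 0.0857, exact permutation test). The ratio of pooled counts was 3.90 with a 95% exact interval of 1.28 to 15.8, which rests on 4 WT counts and leaves out the spread between mice.

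Klrb1c encodes NK1.1, the classical NK cell antigen of C57BL/6 mice, and lies on chr6:128778485-128789215 (minus strand). The raw counts were 1, 0, 1, 0, 1 and 0 in WT mice and 0, 0, 2, 0, 3, 1 and 0 in Nod2-/- mice. No liver exceeded the detection limit, so no fold change is given. BALB/c mice are known as an NK1.1-negative strain, and the reads were mapped to a reference built from C57BL/6J, so divergent BALB/c reads of this cluster may be missing from the counts, which was not tested. Klrb1c shares 413 bases of exon on the same strand with Gm44511, which had 1 count in all mice.

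Il2rg, the common gamma chain, lies on chrX:101264378-101268255 (minus strand). For Il2rg the raw counts were 8, 8, 13, 13, 4 and 15 in WT mice and 9, 15, 9, 36, 39, 8 and 54 in Nod2-/- mice, with medians of 10.5 and 15. Nod2-/- replicates 4, 5 and 7 stood well above every WT mouse, replicate 2 was just above, and replicates 1, 3 and 6 were within the WT range. The log2 fold change was 1.24 ± 0.46 (SE; edgeR adjusted p = 0.134, with 0.0168 before adjustment), and it fell short of the 5% false discovery rate (FDR). Means were 9.95 ± 3.53 and 23.7 ± 17.4 normalized counts (n = 6 and 7, p = 0.107, exact permutation test). The log2 fold change was 0.92 without Nod2-/- replicate 7 (adjusted p = 0.271). Il2rg shares 728 bases of exon on the same strand with Gm20489, which had no count in any mouse. The study reported Il2rg as increased, among immune genes past its fold change and FDR limits in these same libraries. Il2rg is therefore not independent evidence for those genes. With DESeq2 as run here, Il2rg did not pass 5% FDR (adjusted p = 0.0777), so that call was not reached. The reason for the difference was not tested.

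Of the 10 genes only Cd4 and Il2rg were tested in the main fit. Neither passed 5% FDR, against 1.16% of the 13545 genes tested (157 genes), and with 2 genes a count of 0 tells little. Of the tested pair, Il2rg was at an unadjusted p under 0.05 with a higher value in Nod2-/- mice, a criterion that 12.9% of all tested genes met. Without the filter on low counts edgeR called 0 of 10 (0.54% of 27602 genes). In that fit Nkg7, Ncr1 and Il2rg were at an unadjusted p under 0.05 (8.59% of genes in that direction). DESeq2 called 0 of the 3 genes it gave an adjusted p (8.52% of 14219 genes), with adjusted p = 0.159 for Nkg7, 0.0777 for Il2rg and 0.697 for Cd4, and gave no adjusted p for the other 7. At an unadjusted p under 0.05 it had Nkg7 and Il2rg (7.47% of genes in that direction). The exact permutation tests, whose smallest possible p is 0.000583, placed 0 of 10 under 0.05. The mean was higher in Nod2-/- mice for 9 of the 10 genes, which share the same mice and are not separate observations. The range of WT and Nod2-/- mice overlapped for all 10 genes, whereas it did not for 1.44% of the tested genes. That share leaves out the 8 members below the filter. Cd8a, Gzma, Ncr1 and Klrb1c were at 0 in some mice of both groups, so their ranges had to overlap.

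The spread in the Nod2-/- group was carried by a few mice. By normalized counts, replicate 7 was the highest of all 13 mice for 4 genes (Cd3d, Cd8a, Nkg7 and Il2rg), replicate 5 for 4 (Cd3e, Trac, Ncr1 and Klrb1c) and replicate 3 for Cd4, with WT replicate 3 the highest for Gzma. The sum of Cd3e, Cd3d and Trac was 5.52 to 13.6 normalized counts in WT mice (median 9.85), and in Nod2-/- mice it ranged from 5.69 to 37.2 (median 20.9). Nod2-/- replicates 3, 4, 5 and 7 were above the WT range for these T cell genes, and replicates 1, 2 and 6 were inside it. The sum of Nkg7, Gzma, Ncr1 and Klrb1c ranged from 3.28 to 19.9 in the WT group and from 3.41 to 53.9 in the Nod2-/- group. For these cytotoxic and NK cell genes only replicates 5 and 7 were above the WT range.

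Markers of all leukocytes, of macrophages and monocytes and of neutrophils were highest in the same replicate 7. The 10 genes of all leukocytes summed to 5256 normalized counts there, against 1886 to 2736 in the other Nod2-/- mice and 2222 to 2671 in WT mice, and Ptprc (CD45) had 524 raw counts against 54 to 193 elsewhere. The 12 macrophage and monocyte genes summed to 8854 in replicate 7 and to 2124 to 4287 in all other mice. The 12 neutrophil genes ranged from 71.3 to 192 in the WT group and from 117 to 17512 in the Nod2-/- group, and S100a8 reached 4873 raw counts in replicate 7. Nod2-/- replicate 5, the highest mouse for Cd3e and Trac, had a leukocyte sum of 2478, within the WT range. The 11 B and plasma cell genes ranged from 1209 to 2076 in WT mice and from 873 to 2806 in Nod2-/- mice, with the highest sum in replicate 4 and 2227 in replicate 7. None of these markers passed 5% FDR by edgeR. At an unadjusted p under 0.05 by edgeR, 12.9% of all tested genes were higher in Nod2-/- mice. So were 6 of the 10 leukocyte genes and 4 of 11 tested macrophage and monocyte genes. The same held for 5 of 5 tested neutrophil genes and 1 of 5 tested B and plasma cell genes. The rest of the 12 neutrophil genes did not pass the filter on low counts. The median log2 fold changes of these lists were 0.89, 0.53, 4.85 and 0.07, and their part in the values of the T and NK cell genes was not tested. Rag1 and Rag2, which recombine receptor genes in the thymus and marrow, were at 0 in every mouse, whereas Dntt, the template-free polymerase of the same cells, had 8 to 48 counts in WT and 26 to 219 in Nod2-/- livers (log2 fold change 1.88 ± 0.47, adjusted p = 0.0624).

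**Figure D3:**
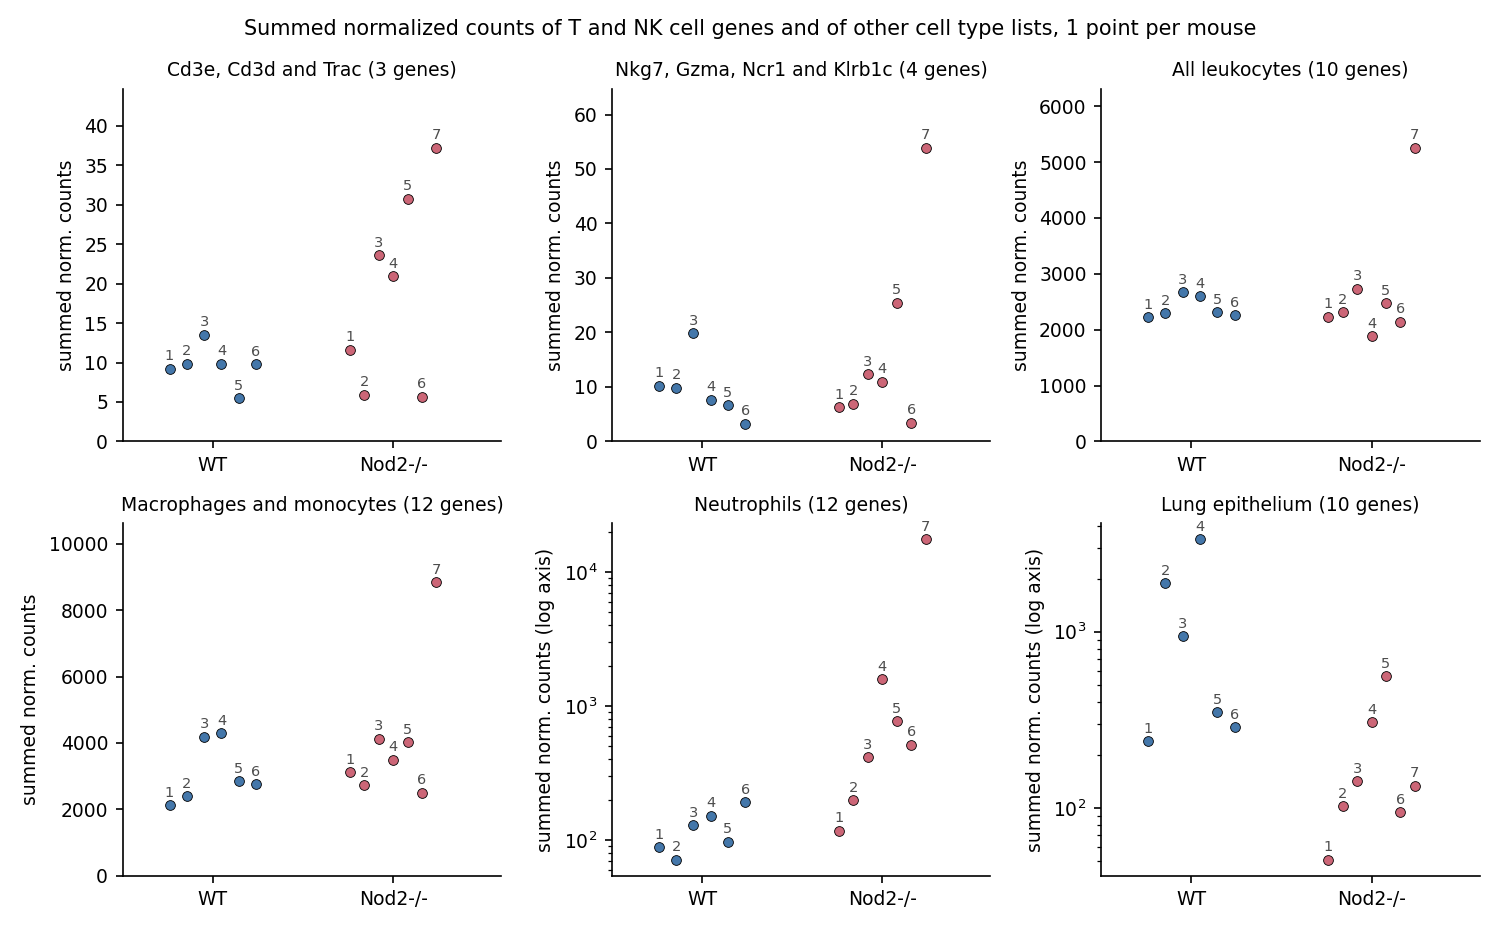
Summed normalized counts per mouse (y axis; logarithmic for neutrophils and lung epithelium) of T cell genes, of cytotoxic and NK cell genes and of 4 other cell type lists, with WT mice in blue, Nod2-/- mice in red and the replicate number at each point. Nod2-/- replicate 7 was the highest in every panel but that of lung epithelium, where WT replicates 2, 3 and 4 were highest.

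The wider T and NK cell program was described with 9 lists holding 160 genes, of which 56 passed the filter on low counts. None of the 56 passed 5% FDR by edgeR, 45 had a higher and 11 a lower value in Nod2-/- mice, and the median log2 fold change was 0.32 against 0.02 over all tested genes. At an unadjusted p under 0.05, 22 were higher (background 12.9%) and 1 was lower (background 10.2%). DESeq2 placed 5 of the list genes past 5% FDR, all higher in Nod2-/- mice, a criterion met by 4.43% of its genes: Cxcl16, Il15, Il7, Jak3 and Vav1. DESeq2 gave an adjusted p for 66 of the 160 list genes, while 104 were below the filter of the edgeR fit, so both counts describe the more abundant genes.

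Genes of the receptor complex were mostly below the filter, and 2 of 16 were tested. Thy1, a surface protein of T cells that stromal cells also carry, had 6 to 12 raw counts in WT and 10 to 35 in Nod2-/- mice (log2 fold change 0.96 ± 0.29, adjusted p = 0.0846). The signalling genes downstream of the receptor were more abundant, with 10 of 21 tested and a median log2 fold change of 0.43. Zap70, the kinase recruited to phosphorylated CD3 chains, had 221 to 355 raw counts in WT and 243 to 379 in Nod2-/- mice, and its level of 6.01 CPM per kb of exon compares with 0.0802 for Cd3e. Its log2 fold change was 0.33 ± 0.13 (adjusted p = 0.163). Vav1, an exchange factor of hematopoietic cells that myeloid cells also use, had 10 to 45 counts in WT and 36 to 163 in Nod2-/- mice (log2 fold change 1.27 ± 0.38, adjusted p = 0.0870). The highest value was again replicate 7, and 6 of 7 Nod2-/- mice were above every WT mouse by normalized counts. Themis, a signalling protein of thymocytes and T cells, had 13 to 114 counts in WT and 6 to 42 in Nod2-/- mice. Its log2 fold change was the lowest among the 10 tested genes of this list (-1.02 ± 0.49, edgeR adjusted p = 0.224).

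Cytotoxic granule genes gave 3 of 17 tested. Serpinb9, the inhibitor that protects killer cells from granzyme B, had 89 to 149 counts in WT and 109 to 198 in Nod2-/- mice (log2 fold change 0.42 ± 0.14, adjusted p = 0.104). Srgn, the granule proteoglycan of many blood cells, had 52 to 102 and 52 to 337 (log2 fold change 0.79 ± 0.36, adjusted p = 0.202). Serpinb6b had 16 to 59 and 30 to 63 (log2 fold change 0.74 ± 0.25, adjusted p = 0.112). None of these is restricted to T and NK cells, and Prf1 (perforin) and Gzmb (granzyme B), which come closer to that, had at most 13 and 3 counts in any mouse. Among the NK cell receptors and regulators 14 of 28 genes had at most 3 counts in every mouse, including Eomes, Klra1, Klra7 and Klra9, and Klra4, Klra8 and Klrg1 were at 0 throughout. The most abundant were the signalling adaptors Tyrobp, with 88 to 202 counts in WT and 86 to 481 in Nod2-/- mice (log2 fold change 0.59 ± 0.34, adjusted p = 0.303), and Fcer1g, with 50 to 107 and 68 to 258 (log2 fold change 0.75 ± 0.29, adjusted p = 0.148). Both adaptors are shared with macrophages and neutrophils. As for Klrb1c, divergent BALB/c reads of the Klra genes may be missing from the counts, which was not tested.

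The common gamma chain axis had 11 of 21 genes tested, 8 higher and 3 lower, with a median log2 fold change of 0.08. The split was 7 and 4 under RLE and DESeq2 scaling and under the replicate block, and 6 and 5 with a median of 0.01 without WT replicate 1. Its ligand Il15, made largely by stromal and myeloid cells for NK and memory T cells, had 6 to 22 counts in WT and 20 to 47 in Nod2-/- mice (log2 fold change 0.88 ± 0.26, adjusted p = 0.0803). Il7, the T cell survival factor that hepatocytes can make, had 1 to 6 and 5 to 23 counts, was below the filter of the edgeR fit and was past the threshold in DESeq2 (log2 fold change 1.59 ± 0.48, adjusted p = 0.0184). For both cytokines 6 of 7 Nod2-/- mice were above every WT mouse by normalized counts. Il2 and Il9 were at 0 in every mouse. On the receptor side Il2rb, the beta chain that pairs with Il2rg for IL-2 and IL-15, had 7 to 20 counts in WT and 9 to 40 in Nod2-/- mice (log2 fold change 0.87 ± 0.33, adjusted p = 0.138). Jak3, the kinase bound to the common gamma chain, had 76 to 196 and 150 to 381 (log2 fold change 0.88 ± 0.24, adjusted p = 0.0712). The widely used kinase Jak1 and the transcription factor Stat6 were the most abundant of the axis and differed little, with log2 fold changes of 0.06 ± 0.10 and 0.08 ± 0.13. Cish, a feedback inhibitor induced by STAT5 in liver and lymphocytes alike, was the lowest, with 98 to 1036 counts in WT and 55 to 356 in Nod2-/- mice (log2 fold change -1.34 ± 0.51, adjusted p = 0.145). The study reported reduced Cish from these same libraries. Neither edgeR nor DESeq2 as run here placed Cish past 5% FDR.

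Transcription factors named for T cell fates were abundant where other liver cells also use them. Id2 had 1578 to 4016 counts in the WT group and 1641 to 3128 in the Nod2-/- group, while the lineage factors Tbx21, Gata3, Foxp3 and Eomes had at most 4 counts in any mouse. Id2 differed by less than its SE of 0.18 on the log2 scale. Ikzf1, a factor of all lymphoid and many myeloid cells, had a log2 fold change of 1.04 ± 0.40 (adjusted p = 0.147). Zbtb16, the factor of NKT cells that hepatocytes also express, had 327 to 1113 and 222 to 605 counts (log2 fold change -0.48 ± 0.29, adjusted p = 0.329). Bcl6, a factor of follicular helper T cells and also of hepatocytes, had 202 to 453 and 124 to 1410 (log2 fold change 0.97 ± 0.43, adjusted p = 0.200). In the innate-like list, 2 of 4 tested genes were higher and 2 lower.

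The homing list had 12 of 17 genes tested, with a median log2 fold change of 0.42. All 12 had a higher value in Nod2-/- mice under TMM, RLE and DESeq2 scaling alike, as did 7088 of all 13545 tested genes under TMM scaling. In the list 5 were higher at an unadjusted p under 0.05 by edgeR, against 12.9% of all tested genes. With 1 mouse left out, 1 of the 12 was lower without Nod2-/- replicate 2 or without WT replicate 6, and the median was between 0.25 (without Nod2-/- replicate 3, 11 genes) and 0.63 (without WT replicate 3, 11 genes). Cxcl16, a chemokine of sinusoidal endothelium and macrophages, had 103 to 175 counts in WT and 140 to 254 in Nod2-/- mice (log2 fold change 0.53 ± 0.13, adjusted p = 0.0644). Its receptor Cxcr6, which marks liver-resident T, NKT and NK cells, had 1 to 15 and 7 to 30 counts, with 4 of 7 Nod2-/- mice above every WT mouse (log2 fold change 1.15 ± 0.45, adjusted p = 0.147). S1pr1 and Itga1, the most abundant of the list, differed little, with log2 fold changes of 0.03 ± 0.12 and 0.14 ± 0.11. Checkpoint and costimulatory receptors had 4 of 16 genes tested. Of these, Icos had 5 to 19 and 12 to 27 counts (log2 fold change 0.72 ± 0.30, adjusted p = 0.176), Lag3 had 30 to 78 and 16 to 88 (log2 fold change -0.20 ± 0.31, adjusted p = 0.726), Cd274 had 14 to 59 and 11 to 50 (log2 fold change 0.21 ± 0.36, adjusted p = 0.749), and Cd86 had 13 to 52 and 17 to 50 (log2 fold change 0.28 ± 0.33, adjusted p = 0.634).

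**Figure D4:**
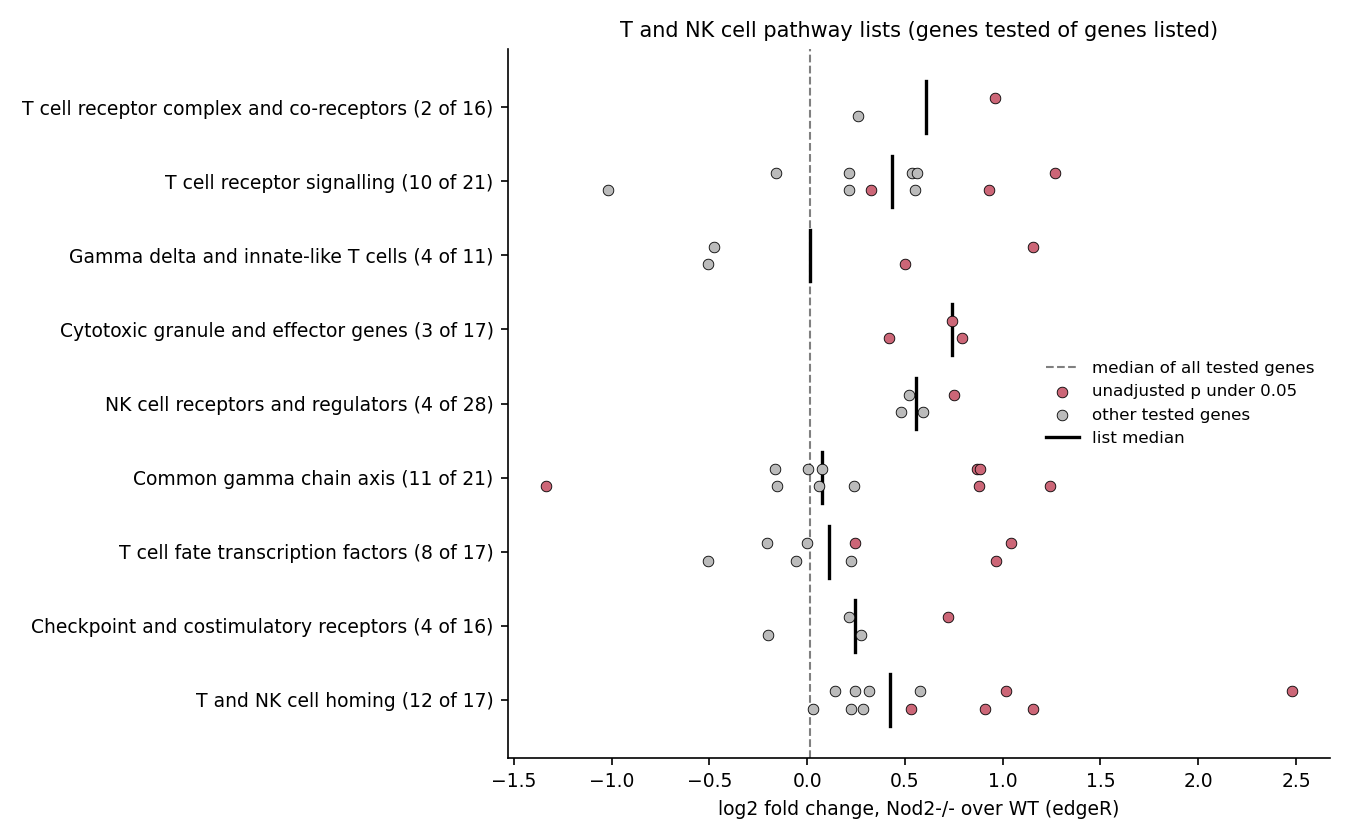
Log2 fold change, Nod2-/- over WT, from edgeR (x axis) for each tested gene of the 9 lists (rows, with tested and listed numbers). Red points had an unadjusted p under 0.05, grey points did not, black bars are list medians and the dashed line is the median of all tested genes (0.02). All 12 homing genes lay above 0, and the medians of the common gamma chain and innate-like lists were 0.08 and 0.01.

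The tested genes most like Cd3e over the 13 mice, by Pearson correlation of log2 CPM with a prior count of 2, were Runx1, Cxcl1, Limd2, Scimp and Angptl7, with r = 0.812 to 0.891. Runx1, a transcription factor of blood cells, had r = 0.891 and Spearman's rho = 0.923, and r = 0.895 without Nod2-/- replicates 5 and 6, which were farthest from the median of Cd3e. Cxcl1, a neutrophil chemokine, had r = 0.861, and 0.769 without those mice. For Il2rg the 5 highest had r = 0.891 to 0.908, led by Arhgef6, an exchange factor for Rac (r = 0.908, rho = 0.808), and Sh3bgrl3 (r = 0.905, rho = 0.764). Without Nod2-/- replicates 4 and 7 those values became 0.773 and 0.800, so part of the likeness rests on those mice. Among the members, Cd3e followed Trac most closely (r = 0.732) and Klrb1c least (r = 0.195), and its r with its partner chain Cd3d was 0.483. These are descriptions over mice that share library depth and tissue makeup, and the counts of Cd3e are so low that the prior count shapes its values.

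**Figure D5:**
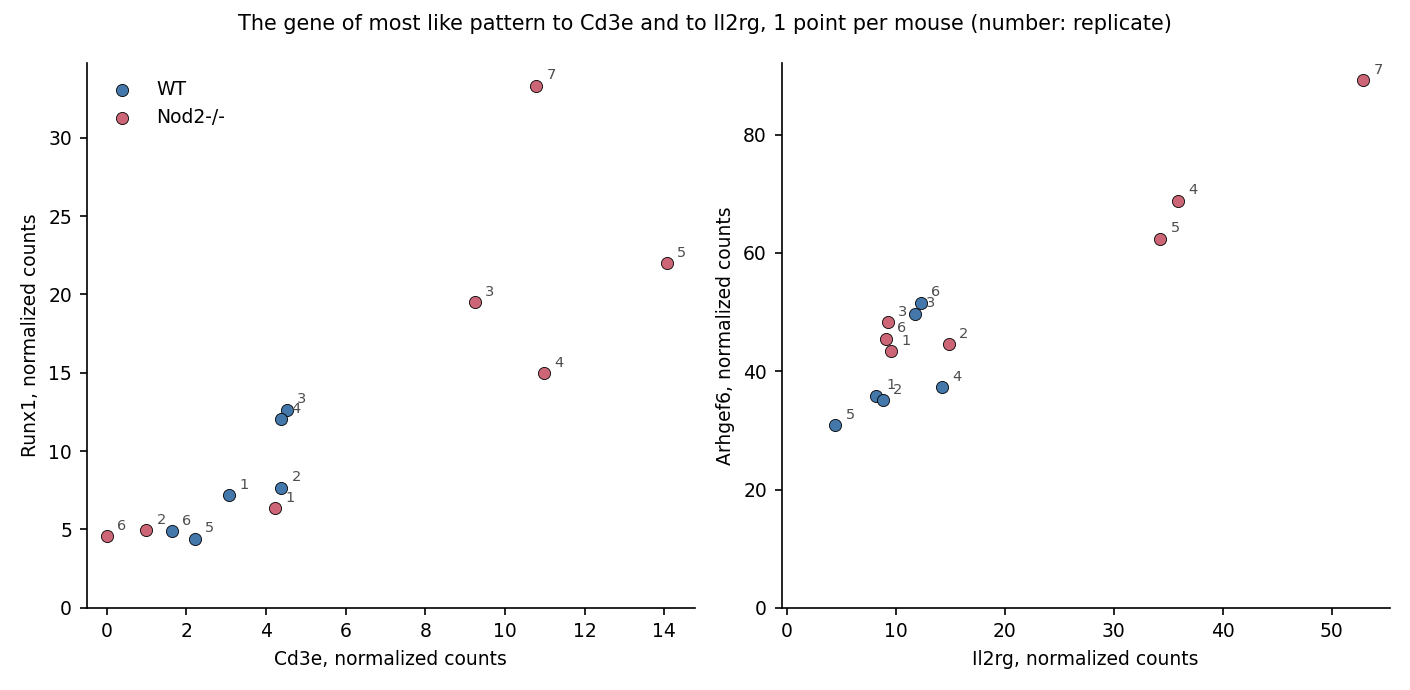
Normalized counts per mouse of Cd3e against Runx1 (left) and of Il2rg against Arhgef6 (right), both axes linear, with WT mice in blue, Nod2-/- mice in red and the replicate number at each point. Nod2-/- replicates 3, 4, 5 and 7 were highest for both genes at left, and replicates 4, 5 and 7 at right.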

How the data were processed

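Liver RNA of 6 WT and 7 Nod2-/- mice was sequenced, 1 library per mouse, from a stranded poly(A) library kit. Per the submitters' processing notes and the study's methods, reads were trimmed with Trimmomatic 0.33 and mapped with TopHat2 2.1.1 to GRCm38. The authors deposited whole-number counts per gene, without normalization. The counting program and its strand setting are not given in the sources used here, so genes with overlapping exons are uncertain. A further 1 row had no identifier and was dropped, and 53274 of 53465 identifiers matched a symbol in GENCODE M21, which also gave positions and exon lengths (all annotated exons merged). Groups came from the genotype label.

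The genotypes were compared by edgeR 4.0.16, run in R 4.3.3, on the counts (TMM, filterByExpr, quasi-likelihood, two-sided, Benjamini-Hochberg over 13545 genes, which held 99.9% of the counts), and each member by an exact permutation test of mean normalized counts, 10 comparisons without adjustment. Alternatives were DESeq2 1.42.0, RLE scaling, no filter, a replicate block, CPM of the raw total and leaving out mice. P-values measure the spread between mice, and intervals cover counting error only. The fits were tested on simulated data. Named were all 10 members, and from each list the genes past 5% FDR, the 2 tested genes with the highest mean and the 2 with the largest change, of which 3 are not reported here; genes of like pattern were the 5 with the highest correlation; Il2rb, Il7, Il15, Jak3, Cxcl16, Dntt, Ptprc, S100a8, Cst7, the genes called in the alternatives and those given at or near 0 were named after their values were seen. Members and lists were chosen with earlier results of these data known.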

Additional observations from a re-analysis of the deposited data

Results flagged for a closer look

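Of 44 groups of values looked at, 6 had a mouse far from the rest of its group, at a limit that chance passes in about 5% of groups. In the Nod2-/- group, replicate 7 was such a mouse for Cd3d, with 17.6 normalized counts against 7.19 in the next mouse, and for Nkg7, with 44.1 against 11.4. The same mouse stood apart for the summed normalized counts of all leukocyte genes (5256 against 2736), of macrophage and monocyte genes (8854 against 4126) and of neutrophil genes (17512 against 1579). The hepatocyte sum was highest in Nod2-/- replicate 4, with 2820490 normalized counts against 1850370. The part of these mice in the T and NK cell values was not tested.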

How the results depend on the processing

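The difference in mean of each of the 10 members kept its direction under CPM of the raw total and with mice left out, as did the log2 fold changes of Cd4 and Il2rg in all fits run. These sets share most of their mice, so a kept direction is weak evidence. For Klrb1c, not detected in any mouse, the difference was 0.0265 normalized counts without Nod2-/- replicate 5. The number of members past 5% FDR stayed at 0, of 10 tested without the filter and of 2 or 3 in the other fits. By the permutation tests 0 members were under 0.05, and leaving out 1 mouse gave 0 to 2: Trac without Nod2-/- replicate 2 (p = 0.0303, exact permutation test), and Cd3e and Ncr1 without Nod2-/- replicate 6 (p = 0.0498 and 0.0216, exact permutation tests). Of the pathway list genes 0 were past 5% FDR in the main fit, 5 with DESeq2, 0 to 5 with 1 mouse left out (5 without WT replicate 3: Cxcl16, Ets1, Itga4, Jak3 and Vav1) and 2 without WT replicate 3 and Nod2-/- replicate 7 (Cxcl16 and Itga4), an alternative chosen after seeing the data; the cause was not tested. Over all genes the calls were 157 in the main fit, 1212 with DESeq2, 1156 without WT replicate 3, 567 without that mouse and Nod2-/- replicate 7, 20 without WT replicates 2, 3 and 4 (also chosen after seeing the data), and 41 to 223 without any other mouse. The log2 fold change of Il2rg was 0.92 to 1.38 with 1 mouse left out. With a replicate block, which left 35 genes called, it was 0.75 (edgeR adjusted p = 0.378). The deviations of same-numbered mice correlated at -0.30 to 0.30, without a common sign. A pairing by number was thus not apparent, but such correlations cannot exclude one. Counts of 0 to 3 limit Cd8a, Ncr1 and Klrb1c.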
